A study of Homo sapiens with 8 samples.

Results

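The genes described here are the pro-apoptotic members of the BCL2 family in K562 cells given Lip-1. The 10 genes BBC3, BMF, BCL2L11, PMAIP1, BIK, BAD, BID, BAX, BAK1 and BOK were taken by symbol, and all 10 were among the 19447 named genes of the deposited count table. K562 is an established human erythroleukaemia line, labelled wild type here, and apoptosis is among the outcomes that the series title names. The labels give the compound only as Lip-1, a short name usually meaning liproxstatin-1, which blocks lipid peroxidation and ferroptosis. The 4 control libraries came from cells without Lip-1 at Day 0, and the labels do not say whether they received a vehicle. Another 3 libraries (replicates 2 to 4) came from cells given 10 µM Lip-1 for 24 h and 1 library (replicate 1) from cells given 20 µM for 24 h, all labelled Day 1. Treatment and day therefore coincide and cannot be told apart. The labels do not say that replicates were separate cultures, so p-values measure the spread between these libraries, which may be technical.

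Proteins of the BCL2 family decide whether the outer mitochondrial membrane is opened during intrinsic apoptosis. BAX and BAK1 form the pores that release cytochrome c, and BOK is a related effector. The BH3-only proteins carry a single short helix, the BH3 domain, that occupies a groove on the anti-apoptotic members (BCL2, BCL2L1, MCL1 and others) or activates the effectors directly. Several BH3-only genes are controlled mainly by transcription, whereas BAD and BID are controlled largely after translation, by phosphorylation and by caspase cleavage.

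The core of the BH3 domain is what joins these genes into a family, and its coding DNA is shown for the 4 genes called higher below and, for comparison, for an activator and a pore former that were not called. The capitals mark the 6 codons from the conserved leucine to the conserved aspartate. A script found exactly 1 such match in the coding sequence of each of the 10 genes (GENCODE release 29, GRCh38).
BBC3: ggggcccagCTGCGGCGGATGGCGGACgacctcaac
BMF: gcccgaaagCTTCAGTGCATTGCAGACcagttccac
PMAIP1: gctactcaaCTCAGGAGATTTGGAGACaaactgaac
BOK: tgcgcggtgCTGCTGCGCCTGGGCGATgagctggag
BCL2L11: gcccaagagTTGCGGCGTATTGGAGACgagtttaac
BAX: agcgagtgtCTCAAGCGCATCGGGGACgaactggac
The capitals lie at chr19:47226591-47226608 in exon 3 of 4 of BBC3, on the minus strand, and at chr15:40104207-40104224 in exon 4 of 5 of BMF, also on the minus strand. In PMAIP1 they lie at chr18:59902673-59902690 in exon 2 of 2, on the plus strand. In BOK they span chr2:241559691-241562352 on the plus strand, across the junction of exons 2 and 3 of 5. In BCL2L11 and BAX, both on the plus strand, they lie at chr2:111150103-111150120 in exon 4 of 5 and at chr19:48955787-48955804 in exon 3 of 6. The counts are per gene and do not separate transcripts with this exon from those without it.

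Total counts ran from 71151415 to 141307169 per library. Spearman correlations between libraries, over the 14857 genes tested at 10 µM, ran from 0.900 (control 3 with the 20 µM library) to 0.991 (controls 2 and 3). The 20 µM library stands apart in several of the values below. All 11 erythroid and K562 markers were above 1 CPM (a gene's count scaled to the library's total) in at least 1 library. Their summed level was 4410 to 7842 CPM in the controls, 3744 to 4770 CPM at 10 µM and 2819 CPM at 20 µM. Most of that sum is globin (HBG1 and HBG2), and single markers were lower still in the 20 µM library. Of the 11 markers, 8 lay below all 10 µM libraries there, among them GATA1, KLF1, NFE2 and LYL1 at 0.308, 0.258, 0.168 and 0.309 times the 10 µM mean (chosen after their values were seen). The part of this in the results below, including the levels of PMAIP1 and BBC3 at 20 µM, was not tested. Summed levels of 3 markers each were 5.36 to 21.6 CPM for T lymphocytes, 0.531 to 1.47 CPM for B lymphocytes and 0.169 to 1.55 CPM for monocytes. They were 0.670 to 9.51 CPM for fibroblasts and 17.6 to 54.4 CPM for epithelium, and no list was at 0 in any library. Only 1 gene of the T lymphocyte list (CD3D) and 1 of the epithelium list (EPCAM) exceeded 1 CPM in any library. Library names use letters for controls 1 and 4, 10 µM replicate 4 and the 20 µM library, and digits for the other libraries, a pattern of names only.

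In untreated cells the pore formers had the highest levels per length. On the scale of CPM per kilobase of exon, the control mean was 19.2 ± 2.5 for BAK1 and 18 ± 2.6 for BAX (SD, n = 4). BID followed at 13 ± 1.43, PMAIP1 at 11.6 ± 2.75, BAD at 9.17 ± 2.19 and BCL2L11 at 5.49 ± 1.81. BOK at 2.20 ± 0.387 and BBC3 at 2.17 ± 0.766 were lower, and BMF at 0.107 ± 0.0754 and BIK at 0.0850 ± 0.0457 were lowest. Neighbours in this order overlapped between control libraries except BCL2L11 and BOK, and BBC3 and BMF. Lengths are the union of exons in GENCODE release 29. With the longest transcript instead, the control level of BAX was 34.2 and that of BID 23.1 CPM per kilobase, which puts BAX first and BID second.

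**Figure D1:**
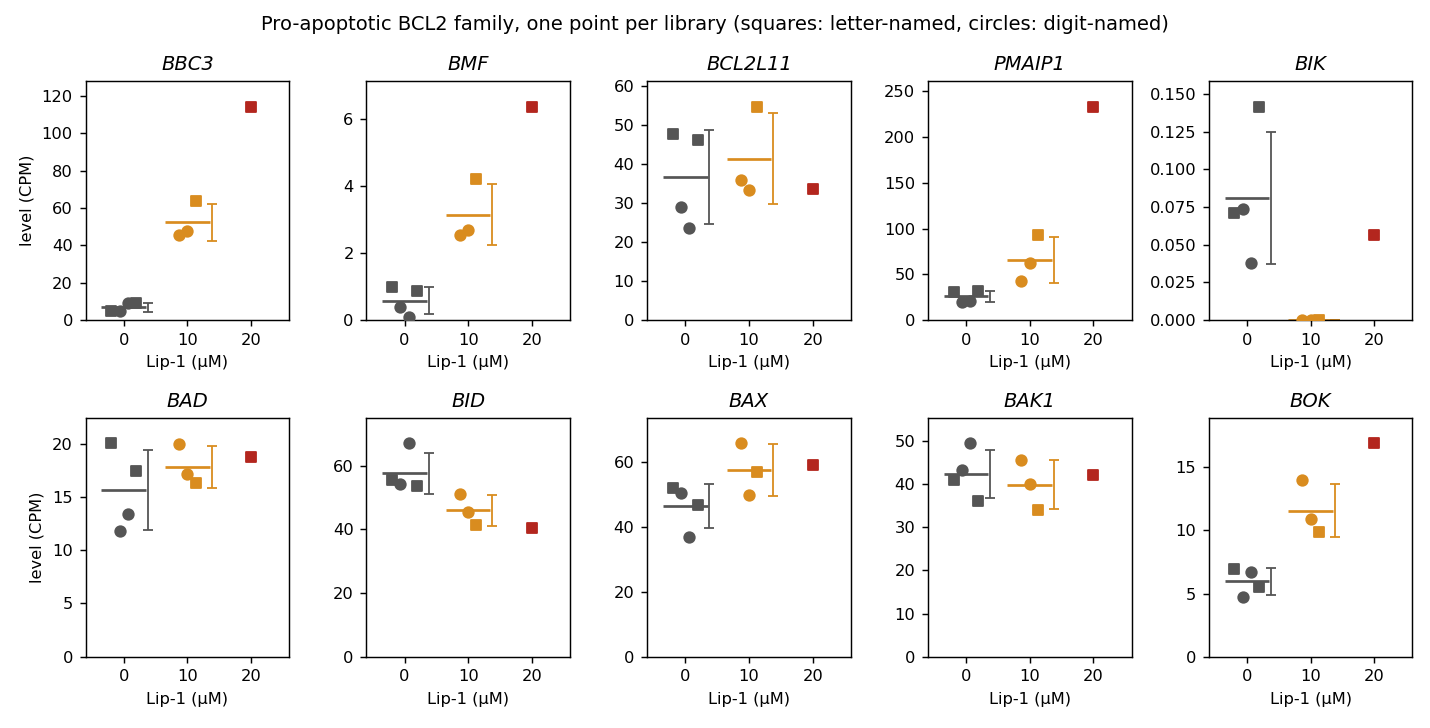
CPM (y axis, from 0, own scale in each panel) of the 10 genes by dose of Lip-1 (x axis, 0, 10 or 20 µM), with a point for each library (squares for letter-named, circles for digit-named), the group mean as a horizontal line and the SD as the bar beside it. The treated libraries lie above all controls for BBC3, BMF, PMAIP1 and BOK, and below all controls for BID.

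At 10 µM, 4 of the 10 genes were called higher than control and 0 lower by edgeR's quasi-likelihood test (Benjamini-Hochberg adjusted p under 0.05 over 14857 genes). An unadjusted p under 0.05 was reached by 6 of the 10, and by 4901 of the 14857 genes tested. The background share of genes called higher was 9.34% and of genes called lower 9.79%. The 4 genes were BBC3, BMF, PMAIP1 and BOK. The median log2 fold change of the 10 genes was 0.13, against 0.05 over all genes tested. Every 10 µM library lay above every control for these 4 genes and below every control for BID and BIK, where 21.8% of all genes tested lay wholly above and 10.7% wholly below. In bulk RNA, fewer or more cells with a transcript and less or more of it per cell cannot be told apart.

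BBC3 (chromosome 19, 47220822 to 47232766, minus strand) encodes PUMA, a BH3-only protein that binds all the main anti-apoptotic members and is a classical p53 target. It was at 4.87, 4.69, 8.97 and 9.03 CPM in controls 1 to 4 and at 45.3, 47.9 and 63.6 CPM in 10 µM replicates 2 to 4. Every treated library was thus far above every control. The mean went from 6.89 ± 2.44 CPM (SD, n = 4) to 52.3 ± 9.88 CPM (n = 3), 7.59 times the control mean. The log2 fold change was 2.79 (SE 0.27, 95% interval 2.17 to 3.41), with an edgeR adjusted p of 0.000775.

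PMAIP1 (chromosome 18, 59899948 to 59904306, plus strand) encodes NOXA, a BH3-only protein that binds mainly MCL1 and BCL2A1. Its levels were 30.7, 20.3, 20.7 and 31.6 CPM in controls 1 to 4 and 42.8, 62.3 and 92.5 CPM in 10 µM replicates 2 to 4. The groups did not overlap, and the 10 µM libraries differed among themselves more than the controls did (SD 25.1 against 6.15 CPM). The log2 fold change was 1.22 (SE 0.24, 95% interval 0.69 to 1.76), with an edgeR adjusted p of 0.00956.

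BMF (chromosome 15, 40087890 to 40108892, minus strand) encodes a BH3-only protein known for its binding to dynein light chains. It was scarce, at 139, 32, 8 and 79 counts in controls 1 to 4 and at 185, 192 and 306 counts in 10 µM replicates 2 to 4. As CPM the controls were 0.984, 0.394, 0.101 and 0.860 and the treated libraries 2.56, 2.70 and 4.21, so the groups did not overlap. The log2 fold change was 2.32 (SE 0.60, 95% interval 0.95 to 3.68), with an edgeR adjusted p of 0.0289. The call was lost without control 2 (adjusted p = 0.0704) and without 10 µM replicate 2, 3 or 4 (0.055, 0.0734 and 0.0994).

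BOK (chromosome 2, 241551424 to 241574138, plus strand), the effector related to BAX and BAK1 whose protein is kept low by degradation from the endoplasmic reticulum, was at 6.95, 4.7, 6.70 and 5.53 CPM in controls 1 to 4. It was at 13.9, 10.9 and 9.84 CPM in 10 µM replicates 2 to 4, all above the highest control. The log2 fold change was 0.83 (SE 0.21, 95% interval 0.35 to 1.31), with an edgeR adjusted p of 0.0273. The call was lost without control 2 or 4 (adjusted p = 0.0627 and 0.0661) and without 10 µM replicate 2 or 3 (0.0905 and 0.078). The span of an antisense gene, BOK-AS1, overlaps that of BOK, as BMF-AS1 overlaps BMF. Overlap of the exons themselves was not examined. Whether the counting used strand is not given in the sources used here, so reads from any shared exon bases cannot be told apart. The same holds for BCL2L11 with MIR4435-2HG, BAD with GPR137, BAK1 with GGNBP1 and BBC3 with MIR3190, which lie on the opposite strand.

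The other pore formers were not called. BAX was at 52.0, 50.2, 36.9 and 46.6 CPM in the controls and 65.7, 49.7 and 57.0 CPM at 10 µM, and the groups overlapped. Its log2 fold change was 0.18 (95% interval -0.11 to 0.48, edgeR adjusted p = 0.374). BAK1, at 36.1 to 49.4 CPM in the controls and 34 to 45.5 CPM at 10 µM, had a log2 fold change of -0.22 (95% interval -0.59 to 0.15, adjusted p = 0.4).

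BID, the link from death receptors to mitochondria once a caspase has cut it, was at 55.5, 54.2, 67.0 and 53.6 CPM in controls 1 to 4 and at 51.2, 45.4 and 41.4 CPM in 10 µM replicates 2 to 4. Its treated libraries all lay below the controls. The log2 fold change of -0.45 (SE 0.14, 95% interval -0.78 to -0.13) had an edgeR adjusted p of 0.056 and was not called. It was called in 6 of 16 alternatives: DESeq2 (adjusted p = 0.0208), the filter at 1 CPM (0.0478), the replicate block (0.0146), a term for the naming pattern (0.00837), and the fits without 10 µM replicate 2 (0.0403) or the 20 µM library (0.0466). Without the 20 µM library 5 of the 10 genes were called, BID beside the 4 above.

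BCL2L11, which encodes the activator BIM, and BAD, which binds BCL2 and BCL2L1 when it is not phosphorylated, showed overlapping groups. BCL2L11 was at 47.6, 29, 23.6 and 46.0 CPM in controls 1 to 4 and at 35.7, 33.4 and 54.6 CPM at 10 µM, with a log2 fold change of 0.05 (95% interval -0.49 to 0.60, edgeR adjusted p = 0.907). BAD was at 11.8 to 20.0 CPM in the controls and 16.3 to 20.0 CPM at 10 µM, with a log2 fold change of 0.07 (95% interval -0.35 to 0.49, adjusted p = 0.841). The intervals allow changes of either sign for both genes.

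BIK, a BH3-only protein of the endoplasmic reticulum, was near the limit of detection. It had 10, 6, 3 and 13 counts in controls 1 to 4, 0 counts in all 3 libraries at 10 µM and 7 counts at 20 µM. Against a floor of 3 counts over the 10 µM group, with the control counts taken as exact, the level would be at least 5.86-fold lower than in the controls. The floor takes a count as 1 read, which may not hold here, so this is not a firm bound. The edgeR adjusted p was 0.0908, and BIK was not called.

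**Figure D2:**
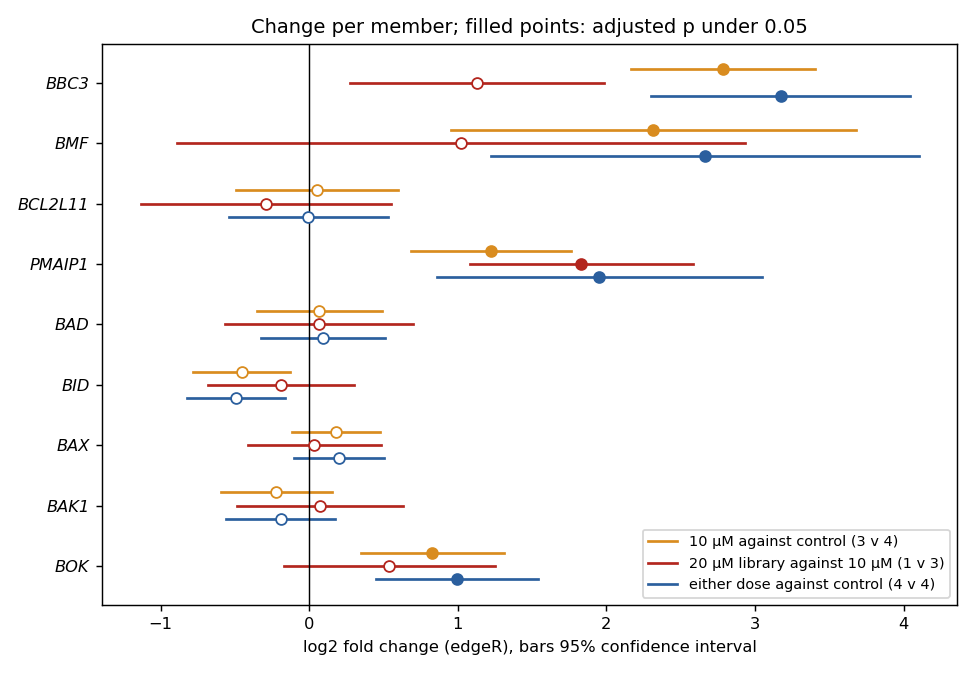
EdgeR log2 fold changes (x axis) with 95% intervals (bars) of the 10 genes except BIK, for 10 µM against control, the 20 µM library against 10 µM and either dose against control, filled where the adjusted p was under 0.05. BBC3, BMF, PMAIP1 and BOK are filled in both comparisons with control, and PMAIP1 alone between the doses.

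Letter-named and digit-named controls did not overlap for 5 of the 10 genes. Over all 14857 genes tested the share was 54% (36.6% with the letter-named controls higher and 17.4% lower), so the 10 genes were near the background. For BCL2L11 the letter-named controls were at 46.0 and 47.6 CPM and the digit-named at 23.6 and 29 CPM. For PMAIP1 they were at 30.7 and 31.6 CPM against 20.3 and 20.7 CPM. BMF and BAD were also higher in letter-named controls, by 3.72 and 1.48 times, and BAK1 was lower, at 0.833 times. The part of this pattern in the results was not tested beyond the fits with a term for it.

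The 20 µM library was set against the 3 libraries at 10 µM in the same fit, assuming that it varies like the others; it has no replicate check. PMAIP1 stood at 233 CPM, above the highest 10 µM library at 92.5 CPM and 9.04 times the control mean. Its log2 fold change against 10 µM was 1.83 (SE 0.33, 95% interval 1.08 to 2.58), with an edgeR adjusted p of 0.00467. PMAIP1 was the 1 gene of the 10 called, against a background of 11.7% of genes called higher and 14.6% called lower, 26.3% in all.

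BBC3 was at 114 CPM in the 20 µM library, above all 10 µM libraries and 16.6 times the control mean. Its log2 fold change against 10 µM was 1.13 (95% interval 0.27 to 1.99, edgeR adjusted p = 0.0559), which was not called. It was called in 8 of 15 alternatives, among them DESeq2 (adjusted p = 0.0128), limma-voom (0.00797) and the fits without control 1, 2 or 3 (0.0291, 0.0428 and 0.0411). BMF was at 6.38 CPM, a log2 fold change of 1.02 (95% interval -0.89 to 2.93), and BOK at 16.9 CPM, a log2 fold change of 0.54 (95% interval -0.17 to 1.25). Neither was called (adjusted p = 0.413 and 0.243), and both intervals include 0. BCL2L11, BAD, BID, BAX and BAK1 were at 33.6, 18.7, 40.4, 58.9 and 42.1 CPM. All 5 were uncalled, and of these only BID lay outside the 10 µM range, below its lowest library. BCL2L11 had a log2 fold change of -0.29 (edgeR adjusted p = 0.608), and it was called lower in the fits with the replicate block (-0.77, 0.0391) and with a term for the naming pattern (-0.71, 0.0118).

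With both doses together against control, the same 4 genes were called higher of 9 tested, as BIK did not pass the filter, against a background of 7.47% higher and 6.69% lower. The comparison shares its controls and the 3 libraries at 10 µM with the first one. It adds only the 20 µM library and is not a separate check. The log2 fold changes were 3.17 for BBC3 (SE 0.39, edgeR adjusted p = 0.00747), 2.66 for BMF (SE 0.64, 0.0319), 1.95 for PMAIP1 (SE 0.48, 0.0347) and 0.99 for BOK (SE 0.24, 0.0324). By limma-voom PMAIP1 was not called (log2 fold change 1.65, adjusted p = 0.0537). When control 1, 2, 3 or 4 or 10 µM replicate 4 was left out, BBC3 alone of the 10 was called (adjusted p = 0.0351, 0.0379, 0.0408, 0.0365 and 0.0294). The count over all genes fell from 1855 to 567, 149, 64, 315 and 312 in these fits, so calls were lost across the table. Without 10 µM replicate 3 BBC3 and PMAIP1 were called (814 genes in all), without replicate 2 BOK was lost (0.0518), and without the 20 µM library 5 genes were called, BID among them. With the replicate number as a block, BID also was called (adjusted p = 0.0438, against 0.0551 without it), as the 5th gene, and the count over all genes rose from 1855 to 2815.

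Among the digit-named libraries alone, BBC3 (log2 fold change 2.61, adjusted p = 0.000454), BMF (3.25, 0.00736), PMAIP1 (1.20, 0.00291) and BOK (0.97, 0.0213) were called by edgeR. Among the letter-named libraries alone, which hold the 20 µM library, the values were 3.55, 2.39, 2.26 and 0.97. None was called there (adjusted p = 0.235 for BBC3, BMF and PMAIP1 and 0.267 for BOK), as 0 genes of the whole table were, with 2694 genes at an unadjusted p under 0.05. All 4 genes had the same direction in both sets. This was fixed in advance, as every treated library lay above every control for each of them.

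**Figure D3:**
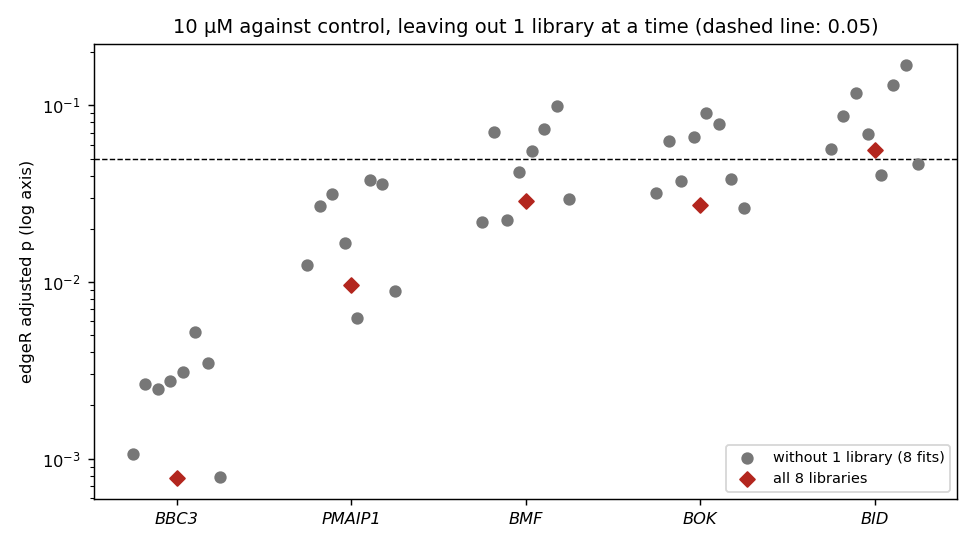
EdgeR adjusted p (y axis, log scale) for 5 genes in the comparison of 10 µM with control, with all 8 libraries (diamonds) and leaving out 1 library at a time (circles). BBC3 and PMAIP1 stay under the dashed line at 0.05 in all 8 fits, while BMF, BOK and BID lie on both sides of it.

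The make-up of the family's transcripts was described from the levels per length. Summed over the 10 genes, the level per length was 88.1, 74.8, 77.7 and 82.8 CPM per kilobase in controls 1 to 4, 114, 110 and 130 in 10 µM replicates 2 to 4 and 215 in the 20 µM library. BBC3, BMF and PMAIP1 together made up 14.2% to 20.7% of it in the controls, 29.8% to 47.7% at 10 µM and 65.9% at 20 µM. BAX and BAK1 made up 41.5% to 52.0%, 28.7% to 40.5% and 19.5%. These shares follow from the levels above and were not tested on their own. At 10 µM PMAIP1 had the highest mean level per length (29.5 ± 11.2 CPM per kilobase, n = 3), with a range that overlapped that of BAX at 22.2 ± 3.09, followed by BAK1 at 18 ± 2.6 and BBC3 at 16.4 ± 3.11. At 20 µM PMAIP1 reached 104 and BBC3 35.9 CPM per kilobase, above BAX at 22.8. With the longest transcript as length, BAX came before PMAIP1 at 10 µM (42.3 ± 5.89 against 33.8 ± 12.9), and at 20 µM PMAIP1 (120) and BBC3 (62.1) stayed above BAX (43.4). On that length BBC3, BMF and PMAIP1 made up 12% to 17.8% in the controls, 28.4% to 44.8% at 10 µM and 63% at 20 µM.

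**Figure D4:**
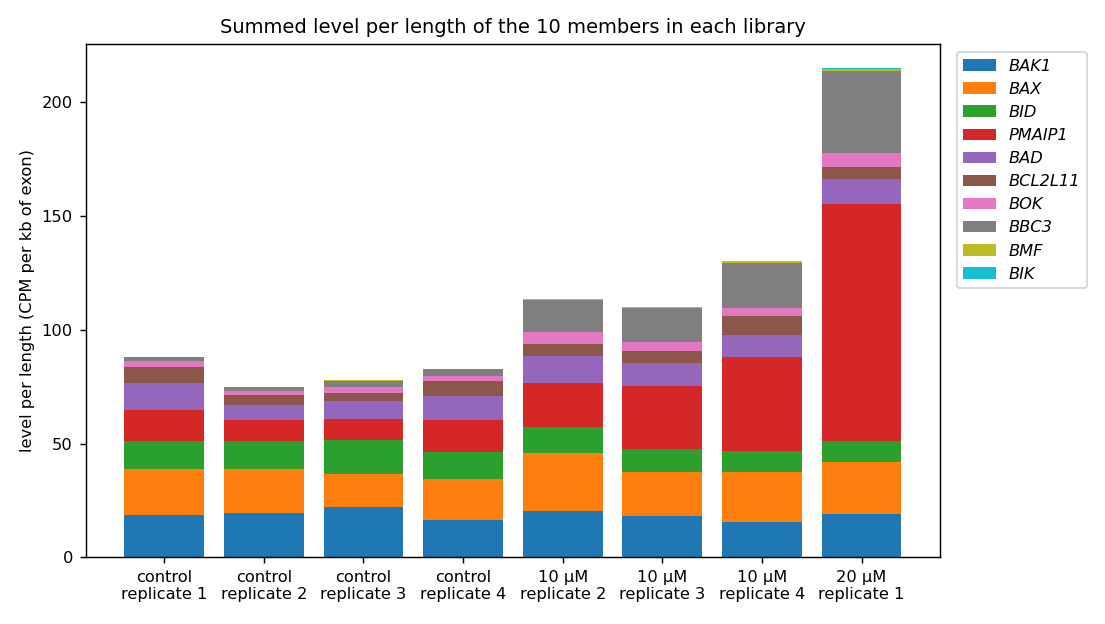
Level per length (y axis, CPM per kilobase of exon, from 0) in each of the 8 libraries (x axis), as bars stacked by gene. The bars reach 74.8 to 88.1 in the controls, 110 to 130 at 10 µM and 215 at 20 µM, where PMAIP1 alone accounts for 104.

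The upstream sequences of the 3 BH3-only genes called higher are shown because these genes rose together. They are taken from RefSeq's promoter windows (GRCh38.p14, 250 bases before to 50 after a start), less the bases that GENCODE places in an exon, on the gene's strand. RefSeq entries were found for 9 of the 10 genes, with 15 windows in all. Capitals mark matches of 6 motifs chosen after the data were seen and searched on both strands: AP-1 (TGANTCA), CRE (TGACGTCA), C/EBP-ATF (TGATGNAAN), forkhead (GTAAACA), E-box (CACGTG) and GC box (GGGCGG). The printed stretches are chr19:47232767-47232917 (minus strand) for BBC3, chr15:40108893-40109129 (minus strand, the first of the BMF entries) and chr18:59899746-59899947 (plus strand) for PMAIP1.
BBC3: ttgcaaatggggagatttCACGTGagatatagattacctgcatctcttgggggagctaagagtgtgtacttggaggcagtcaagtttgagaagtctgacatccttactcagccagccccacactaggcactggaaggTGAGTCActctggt
BMF: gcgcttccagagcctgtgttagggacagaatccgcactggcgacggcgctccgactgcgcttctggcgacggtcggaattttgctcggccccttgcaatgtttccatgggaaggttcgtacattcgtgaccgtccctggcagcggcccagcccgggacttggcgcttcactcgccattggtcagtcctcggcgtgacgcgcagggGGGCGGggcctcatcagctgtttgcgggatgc
PMAIP1: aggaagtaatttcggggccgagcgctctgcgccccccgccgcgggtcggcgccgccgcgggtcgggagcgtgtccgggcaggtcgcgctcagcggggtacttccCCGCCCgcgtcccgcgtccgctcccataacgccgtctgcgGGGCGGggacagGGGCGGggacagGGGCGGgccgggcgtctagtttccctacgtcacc
BBC3 held 1 AP-1 and 1 E-box match and no GC box, PMAIP1 held 4 GC boxes, and BMF held 1 GC box in the stretch shown. Of 35116 windows, 7.71% held the AP-1 motif, 7.26% the E-box and 45.0% the GC box. CRE, C/EBP-ATF and forkhead matches, held by 1.85%, 3.61% and 3.42% of windows, were absent from these 3 windows. A match is a description of letters, and none of the 6 motifs was found in all 3 windows.

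Related genes were described from lists of 6 anti-apoptotic members, 8 other genes with BH3 or BCL2 homology, 10 genes of membrane permeabilisation and the steps after it, and 14 transcriptional regulators, with counts read against the 9.34% and 9.79% above. Of 5 anti-apoptotic genes tested at 10 µM, 0 were called by edgeR and 1 had an unadjusted p under 0.05, as 4901 of all 14857 genes did. Their median log2 fold change was 0.15, against 0.13 for the 10 pro-apoptotic genes and 0.05 over all genes tested. MCL1, the partner of NOXA, was at 265 ± 107 CPM in the controls and 561.9 ± 109 CPM at 10 µM (log2 fold change 0.95, adjusted p = 0.0893), and BCL2 had a log2 fold change of 0.49 (adjusted p = 0.163). Every 10 µM library lay above every control for MCL1, as for 21.8% of all genes tested. In the 20 µM library MCL1, BCL2 and BCL2L2 were at 1023, 39.11 and 47.15 CPM, above all 10 µM libraries. BCL2L1, at 131.9 CPM, was below all of them.

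Of 7 other BH3 or BCL2-homology genes tested, 2 were higher and 1 lower at 10 µM, with a median log2 fold change of 0.34. BCL2L13, a mitochondrial member of the family, rose (log2 fold change 0.60, edgeR adjusted p = 0.00451), and BNIP3, a mitophagy receptor, fell (-0.60, 0.0161). Of 10 permeabilisation genes, 2 were higher and 4 lower, with a median of -0.30. APAF1, which forms the apoptosome, rose (0.84, 0.00576), and VDAC2, the channel that recruits BAK1 to the outer membrane, fell (-0.45, 0.00966).

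Of 13 transcriptional regulators tested, 6 were higher and 0 lower at 10 µM, with a median log2 fold change of 0.35. FOXO3, a forkhead factor, rose by 1.06 (edgeR adjusted p = 0.00326), and TRIB3, a pseudokinase induced in the integrated stress response, by 1.07 (0.0113). In the 20 µM library against 10 µM, where 11.7% of all genes were called higher and 14.6% lower, 8 of these 13 were higher and 1 lower, and 0 of 5 anti-apoptotic genes were called, with 2 at an unadjusted p under 0.05. Of the permeabilisation genes 0 were higher and 3 lower, and of the other BH3 genes 1 was higher and 0 lower.

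**Figure D5:**
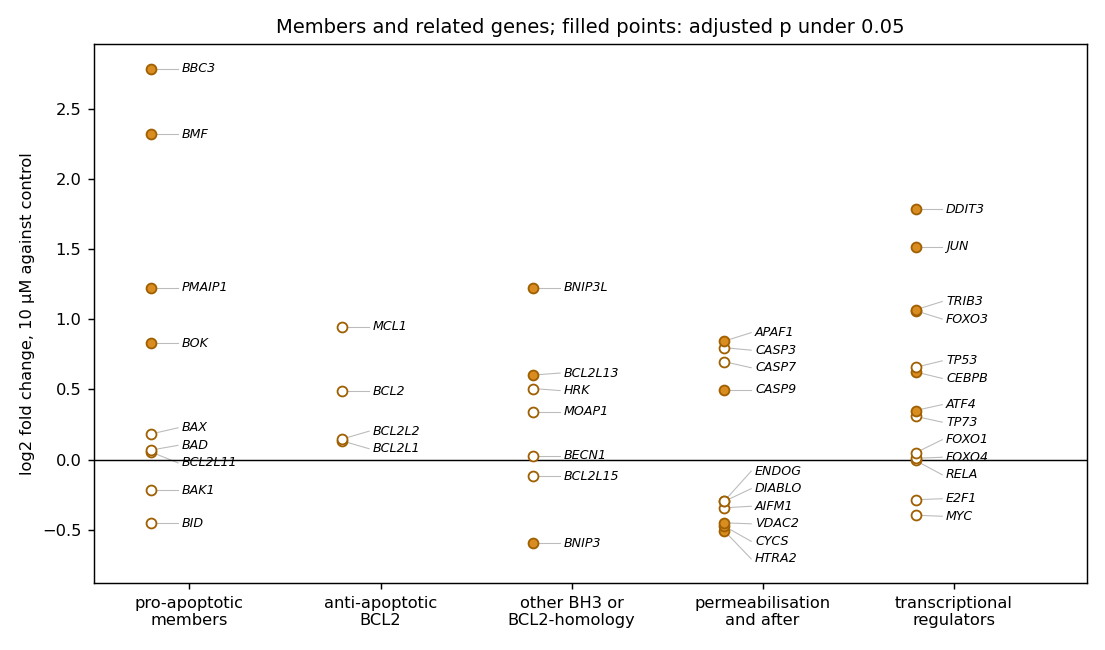
Log2 fold change at 10 µM against control (y axis) of the 10 genes and of 4 lists of related genes (x axis), filled where the adjusted p was under 0.05. BIK and BCL2A1, whose fitted values rest on very low counts, are not drawn; 0 of the anti-apoptotic genes are filled, against 6 of the regulators.

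Genes whose log2 CPM most resembled that of each called gene over the 8 libraries were named by Pearson's r, among genes whose log2 CPM averaged at least 1. These points share treatment group, day and depth, and no test was made. For BBC3 they were H4C8 (r = 0.990), DRAM2 (0.982) and WASHC2A (0.982); H4C8 and WASHC2A have near-identical copies, and their counts are uncertain. For BMF they were EMP2 (0.989), ZFP36L1 (0.988) and CCNG2 (0.986). For PMAIP1 they were ANXA1 (0.997), SDCBP (0.996) and the stress-induced factor ATF3 (0.995), and for BOK they were APBB3 (0.976), SH3D21 (0.973) and ERCC1 (0.966).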

How the data were processed

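RNA from 8 K562 libraries was sequenced (4 controls, 3 at 10 µM Lip-1, 1 at 20 µM). The deposited values are counts, whole numbers for each gene in each library. The submitters' processing notes name the build hg38 and the tools HISAT2, StringTie, bcl2fastq 2.0, limma and DESeq2, and the annotation is not given in the sources used here. Low values fell on 4 counts (2958 entries) more often than on 1 (401), so a count may not be 1 read. Another 9 lines with a blank name were dropped.

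CPM used library totals. The scaling factors that edgeR estimated (TMM) were 0.900 to 0.998 in the controls and 1.018 to 1.085 in the treated libraries. CPM does not use them, so by CPM treated libraries stand higher against controls than in the fits. For BBC3 at 10 µM the ratio to control was 7.59 by CPM and 6.90 in the fit. Counts of libraries above or below all controls share this offset. Tests used R 4.3.3 and edgeR 4.0.16 (TMM, filterByExpr, quasi-likelihood, two-sided, Benjamini-Hochberg at 0.05) in a fit of 3 dose levels, and of 2 levels for either dose. Alternatives used DESeq2 1.42.0, limma 3.58.1 voom, other scaling and filters, a replicate block, a term for the naming pattern, and leaving out each library. The script was tested on simulated data. Of simulated 2-fold changes, 46% were called for 10 µM against control and 17% for the 20 µM library against 10 µM. Of 4-fold changes, 69% and 62% were called. A gene not called may therefore still have changed by such an amount. Floors cover counting error only.

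Controls and treated libraries share replicate numbers in the labels. For numbers 2 and 3 the library names of control and treated library also share a first digit, which differs between the numbers. The names of number 1 share a first letter, which control 4 also has, and those of number 4 do not share one. For either dose, deviations from group means correlated at 0.463, 0.202, 0.302 and 0.214 for numbers 1 to 4, in each case the highest value among the controls. The margin was small for 10 µM replicate 3 (0.258 with control 2) and replicate 2 (0.161 with control 3). Whether the numbers mark pairs is therefore not settled. The main fit for either dose did not use them, and the fit with the replicate block is an alternative.

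The 10 genes and the lists were chosen with earlier results of these data known. Named genes were all 10 members, the 2 genes of smallest p in each related list, and the 3 genes most like each called member.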

Additional observations from a re-analysis of the deposited data

Results flagged for a closer look

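BID in the controls had 1 library far from the others. Control 3 was at 67.0 CPM and the next control at 55.5 CPM, and this gap was 0.858 of the whole range of the 4 controls, which is beyond Dixon's 95% limit for 4 values. Chance alone gives such a flag in about 1 of 20 groups. Without control 3 the log2 fold change of BID at 10 µM was -0.34 (edgeR adjusted p = 0.118).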

How the results depend on the processing

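At 10 µM, BBC3 and PMAIP1 were called in all 16 alternatives, with log2 fold changes of 2.63 to 2.98 and 0.93 to 1.43, BMF and BOK in 12 of 16 and BID in 6. Genes called (2842) became 4657 with the replicate block, where BID had an edgeR adjusted p of 0.0146, and 4665 with the naming term; they ran from 1364 (without 10 µM replicate 3) to 3021 (without the 20 µM library), and the members called from 2 to 5. For this comparison the deviations of number 2 correlated at only 0.0756, so the numbers were not taken as pairs, although each 10 µM library correlated best with its own number. In the 20 µM comparison, members called were 2 under DESeq2, voom, no filter, the filter at 1 CPM and the naming term, 3 with the block, and 1 to 2 without 1 library, while genes called were 2841 to 4984 against 3903. The added member was BBC3, except BCL2L11 with the naming term and both with the block. For either dose, genes called were 3395 under DESeq2, 2815 with the block, 3348 with the naming term, 3137 in digit-named and 0 in letter-named libraries, and 64 (without control 3) to 3021 (without the 20 µM library) when 1 library was left out; members called were 0 in letter-named libraries and 1 to 5 without 1 library.

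Signs turned only for genes not called. At 10 µM without 1 library, BCL2L11 ran from -0.172 to 0.186 and BAD from -0.0532 to 0.185. In the 20 µM comparison the block gave BMF -0.32, BAD -0.36 and BAX -0.11, and the naming term BAD -0.0625 and BID 0.0012. Leaving out 1 library, BAX ran from -0.0601 to 0.15, BAD from -0.0421 to 0.162 and BAK1 from -0.0748 to 0.183. For either dose, BCL2L11 was 0.0437 by upper quartile, 0.0136 with the filter at 1 CPM, 0.0193 with the block, 0.0329 with the naming term, 0.24 in digit-named libraries and -0.192 to 0.126 without 1 library. BAD was -0.24 in letter-named libraries and -0.017 to 0.21 without 1 library. The causes were not tested. Depth limits BIK, at 0 to 13 counts in each library.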

Other observations

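Levels of some pairs among the 10 genes varied together or in opposite directions across the 8 libraries. The libraries share treatment, day and depth, so these are descriptions with no test. Pearson's r of log2 CPM was 0.896 for BBC3 and BOK, 0.880 for BBC3 and PMAIP1, 0.852 for BMF and PMAIP1 and 0.809 for BBC3 and BMF. It was -0.965 for BMF and BID and -0.817 for BCL2L11 and BAK1. These are among the strongest pairs, and others were near 0, such as BBC3 and BCL2L11 (-0.048) and BCL2L11 and PMAIP1 (0.104).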
